A study of Mus musculus with 12 samples.

Results

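The early serum response of NIH 3T3 cells, an established mouse fibroblast line, was described across genes in cells that had received a control siRNA. Libraries were taken by their labels, and 6 of the 12 RNA-seq libraries of the series belong here. In 3 of them the cells had been transfected with the control siRNA (AllStars negative control) and kept overnight in 0.3% fetal bovine serum (FBS). In the other 3 the same treatment was followed by 15% FBS for 45 min. The remaining 6 libraries came from cells transfected with Lap2 siRNA, directed at the nuclear lamina gene Tmpo, at the same serum levels, and they entered the fit but not the comparison. No cell of either group was left untransfected, and the labels do not say whether the libraries of a group came from separate cultures, so that p-values measure the spread between these libraries of a single cell line. Each library lists 49671 genes, of which 18668 passed the filter on low counts and were tested.

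Fibroblasts deprived of serum leave the cell cycle, and serum returns them to it. Within minutes, growth factors and lipids in serum activate the ERK kinases and the small GTPase RhoA. ERK signals to the transcription factor SRF through its ternary complex partners, while RhoA builds actin filaments and so releases the actin-bound SRF cofactors MRTF-A and MRTF-B to the nucleus. The genes that respond first, the immediate early genes, need no new protein synthesis, and many of them encode transcription factors, secreted signals and inhibitors of the same signalling.

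Total counts ran from 18816519 to 23457484 in the 0.3% FBS libraries and from 21191927 to 26265253 in the 15% FBS libraries. Fibroblast identity was clear in both groups: the 11 fibroblast markers examined summed to 892269 to 928142 normalized counts in 0.3% FBS and 945387 to 1041249 in 15% FBS, with 3 raised and 1 lowered (2 and 4 with total counts), whereas 18 markers of other cell types summed to 189 to 209 and 159 to 204, none of the 9 that were tested was called by edgeR or DESeq2 (1 had an unadjusted edgeR p under 0.05), and Epcam, Krt18, Myod1, Myog, Sox10, Rbfox3 and Hbb-bs had no count in any of the 6 libraries. Gapdh, a glycolytic enzyme often used as a reference, had 15829, 14702 and 15267 normalized counts in 0.3% FBS and 15863, 16458 and 15614 in 15% FBS. The groups overlapped, with a log2 fold change of 0.07 ± 0.06 (SE, edgeR adjusted p = 0.48), and -0.14 with total counts, not called either.

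Serum raised 2915 genes (15.6% of those tested) and lowered 2597 (13.9%) at an adjusted p under 0.05 in edgeR's quasi-likelihood test. Most changes were small. A change over 2-fold was reached by 702 raised genes (3.76%) and 614 lowered genes (3.29%). The 2 directions differed in reach: 29 raised genes had a log2 fold change over 6, compared with 2 lowered genes, and 393 of the 702 and 477 of the 614 lay between 1 and 2 in size. The split depended on the scaling of the libraries. With total counts in place of the TMM factors, which averaged 1.04 in 0.3% FBS and 0.9 in 15% FBS, 1632 genes were called raised and 5847 lowered, and with upper-quartile scaling 2183 and 3878. These scalings shifted the median log2 fold change of all tested genes to -0.21 and -0.10, from -0.01 with TMM, so that the fold changes below are relative to the bulk of genes. Bulk libraries cannot tell less RNA of a gene per cell from fewer cells that express it.

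**Figure D1:**
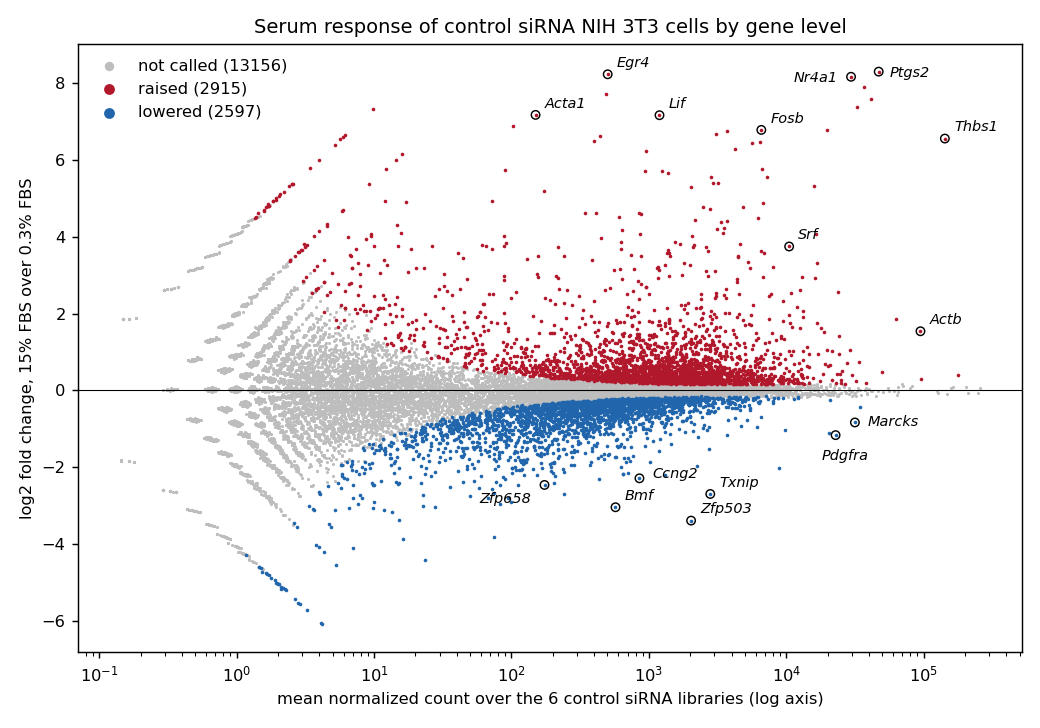
Log2 fold change of each of the 18668 tested genes (15% over 0.3% FBS, y axis) against its mean normalized count over the 6 control siRNA libraries (x axis, log scale). Red points are the 2915 raised genes, blue points the 2597 lowered genes and grey points genes that were not called. The raised genes reach much larger changes than the lowered ones at every level above 100 counts, and 8 lowered genes lie at 10000 or more (135 with total counts).

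The genes raised most were read first. By the rule for named genes (called by edgeR, averaging 100 or more normalized counts over the 6 libraries, and with no overlap of the groups, met by 2565 raised and 2023 lowered genes), the largest increases were those of 14 genes reported here, Ptgs2, Egr4, Nr4a1, Ccn1, Nr4a3, Ccn2, Acta1, Lif, Gm29233, Fosb, Errfi1, Hbegf, Fos and Nppb. Since all of these were chosen by the serum contrast, their values describe it. Over the whole table, 97.3% of called genes had groups that did not overlap, against 42.0% of all tested genes.

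Among these, Ptgs2 (chr1:150100031-150108227, mm10), the inducible enzyme that makes prostaglandins, had 317, 280 and 302 normalized counts in 0.3% FBS and 94315, 94216 and 93475 in 15% FBS. The libraries of each group lay close together, and the log2 fold change of 8.29 ± 0.09 (SE, edgeR adjusted p = 1.9e-36) was the largest under the rule. The orphan nuclear receptor gene Nr4a1 went from 200, 217 and 202 to 60425, 61908 and 55024 (8.16 ± 0.09). Its relative Nr4a3 started much lower, at 3.93, 5.2 and 4.31, and reached 955, 979 and 967 (7.70 ± 0.16). For Egr4, a zinc-finger activator with 1.96, 6.06 and 1.08 in starved cells and 1020, 1113 and 870 after serum, the change of 8.23 ± 0.21 rests on a baseline of a few reads, as do those of Nr4a3 and Acta1, and depends on the prior count of the fit. At such a baseline the SE of these genes can understate the counting error.

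All 9 members of the EGR and NR4A list rose, with a median log2 fold change of 6.44. EGR factors bind GC-rich promoter sites and are themselves held back by the corepressors Nab1 and Nab2. Egr1 had 920, 748 and 686 normalized counts in 0.3% FBS and 32533, 33195 and 28010 in 15% FBS, and Egr3 had 171, 137 and 126 against 13567, 13134 and 11592. Egr2 moved from 135, 129 and 121 to 11279, 11541 and 10754. No starved library came near a stimulated one for any of the 3. The corepressors moved least on the list, Nab2 by 1.69 and Nab1 by 0.80 on the log2 scale.

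AP-1 is the dimer of FOS and JUN proteins. Of the 12 tested AP-1 and small MAF genes, 10 rose and none fell (median 3.51). Fosb went from 103, 129 and 124 normalized counts to 13006, 13676 and 12520 (log2 fold change 6.78 ± 0.11, SE), and Fos from 65.8, 60.6 and 51.8 to 6243, 6657 and 5367 (6.67 ± 0.13). Fosl2, another FOS-family gene, was already expressed in starved cells, with 2976, 3064 and 2863 against 23556, 22889 and 22491 (2.95), and so were the JUN genes. Jun had 4774, 4964 and 4940 before and 16305, 16394 and 16392 after serum, a rise of 1.74 on the log2 scale, and Junb went from 1772, 1795 and 1947 to 31819, 31719 and 29305, a rise of 4.07. Jund had 4484, 4656 and 4778 against 5352, 5115 and 4918, which was not called (log2 fold change 0.14, edgeR adjusted p = 0.11, and 0.028 with the 6 control libraries alone), and Jdp2, an AP-1 repressor, was not called either (0.17). With total counts both values turned slightly negative, to -0.06 and -0.04, without a call.

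Other early regulators rose nearly as uniformly. Of 30 tested genes 25 rose and 3 fell, with a median log2 fold change of 2.86. Arc, best known as a synaptic gene, went from 114, 115 and 89.5 to 8797, 8386 and 7979 normalized counts (6.29), and Myc, the growth regulator, from 371, 359 and 355 to 4897, 4598 and 5045 (3.74). The exceptions stood apart from the rest of the list. Irf1, an interferon-response activator, had 1099, 1026 and 1144 in 0.3% FBS and only 341, 308 and 313 in 15% FBS, a log2 fold change of -1.76, and Snai2 and Ets2 were lowered at -0.75 and -0.32. Of 13 KLF factors, 10 rose (median 1.22), led by Klf10 with 503, 571 and 520 against 12287, 11649 and 11726 normalized counts. Klf3, Klf8 and Klf11 were not called, at -0.17, -0.25 and -0.22, but Klf3 was called lowered with the 6 control libraries alone, with stricter filters and with total counts or upper-quartile scaling, and Klf11 with total counts.

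Secreted signals and matrix-associated proteins formed a second large class. Of 27 tested growth factors and cytokines 21 rose and 1 fell (median 1.48). The EGF receptor ligand gene Hbegf had 79.5, 59.8 and 68 normalized counts in 0.3% FBS and 7006, 6957 and 8109 in 15% FBS, and the cytokine gene Lif had 18.6, 11.3 and 20.5 against 2367, 2337 and 2421. Both groups were far apart. The chemokine gene Cxcl12 was the member that fell, with a log2 fold change of -0.47. Nppb, which encodes a natriuretic peptide, went from 6.87, 13 and 5.39 to 811, 813 and 980.

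The matricellular proteins of the CCN family and thrombospondin-1 gave some of the most abundant transcripts of stimulated cells. Thbs1 (chr2:118111876-118127133) had 2963, 3016 and 3057 normalized counts in 0.3% FBS and 275209, 284616 and 288773 in 15% FBS. Its log2 fold change was 6.55 ± 0.08 (SE, edgeR adjusted p = 2.7e-35). Per kilobase of exon, Thbs1 rose from 496 to 46580 normalized counts, next to 52750 for Actb in the same stimulated cells. Ccn1 went from 382, 250 and 299 to 71221, 74622 and 76002, and Ccn2 from 501, 306 and 372 to 63462, 64766 and 67433. In each of these genes every stimulated library stood far above every starved one. Of the 22 tested matricellular, protease and prostaglandin genes 15 rose and 2 fell, and those that fell, Adamts1 (-1.11) and Adamts5 (-0.51), both encode matrix-cleaving proteases. Has1, a hyaluronan synthase gene, rose from 1 read in all starved libraries together to 73, whereas Has2, at 2409, 2881 and 2972 against 2468, 2531 and 2743 normalized counts, was not called (-0.09, and -0.30 and called lowered with total counts).

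Inhibitors of the signalling itself were raised as well. Of 18 tested genes for dual-specificity phosphatases, Sprouty and SPRED proteins and the EGF receptor inhibitor Errfi1, 16 rose and 1 fell (median 1.53). Errfi1 had 365, 357 and 351 normalized counts in 0.3% FBS and 40286, 39556 and 37239 in 15% FBS. Dusp5, a nuclear ERK phosphatase, went from 255, 214 and 246 to 13442, 12477 and 13111, and Dusp6, its cytoplasmic relative, from 355, 280 and 291 to 6493, 6514 and 6129. Their groups were well separated, and Dusp7 was the member that fell (-0.54). Genes that shorten mRNA lifetime behaved similarly, with 10 of 12 raised and 1, Tob1 (-0.64), lowered. Zfp36, which binds AU-rich elements and recruits the deadenylase, had 351, 379 and 287 normalized counts before and 9899, 9990 and 8091 after serum, and Btg2, a deadenylase adaptor, had 299, 326 and 273 against 14752, 15001 and 12758. In the ID, HES and SMAD feedback list 9 of 11 rose, up to the Notch-pathway repressor Hes1 at 4.52, and Smad9 fell (-0.83). Of 14 NF-κB genes 8 rose and 2 fell (median 0.63), and of 14 SOCS and STAT genes 9 rose and 2 fell (median 0.42), with Cish, an inhibitor of cytokine receptors, at 3.86 and Stat2 at -0.82.

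**Figure D2:**
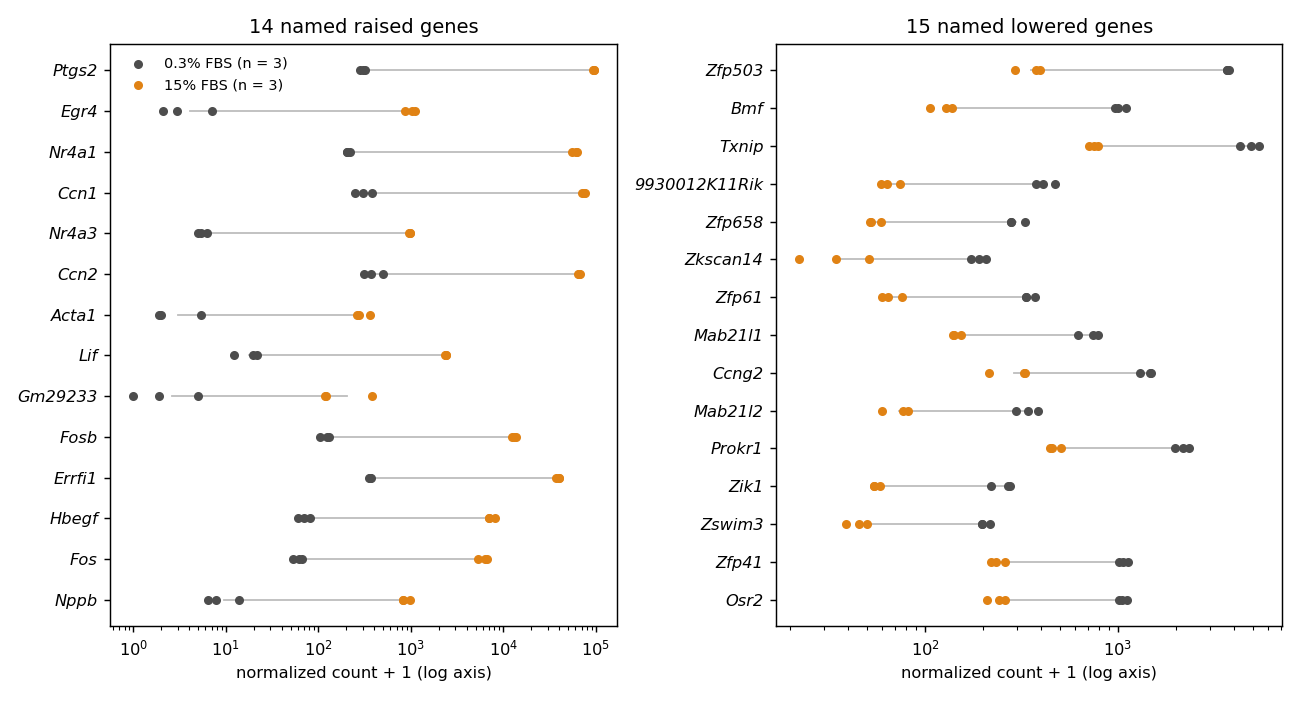
Normalized count plus 1 in each control siRNA library (x axis, log scale) for the 14 raised genes (left) and the 15 lowered genes (right) named by the rule. Dark points are the 3 libraries in 0.3% FBS, orange points the 3 libraries in 15% FBS, and the grey line joins the group means. The rule required groups that do not overlap, so that their separation in the 29 genes was set by the choice. The raised genes span a wider range of change than the lowered ones.

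The SRF-linked cytoskeletal genes moved as a block. Of 43 tested members 42 rose and none fell, with a median log2 fold change of 1.54, and Capzb, an actin capping subunit, had 3786, 3925 and 3772 against 4212, 4286 and 4143 normalized counts, which was not called (0.14, edgeR adjusted p = 0.081), although DESeq2 called it raised (adjusted p = 0.022) and total counts turned its value to -0.07. Changes were smaller than those of the immediate early factors but began from high levels. Actb, the major cytoplasmic actin, had 50489, 47915 and 47447 normalized counts in 0.3% FBS and 143169, 141440 and 139316 in 15% FBS (1.54 ± 0.06, SE). Actg1 went from 28016, 27049 and 26533 to 99962, 99419 and 98652 (1.87 ± 0.06). The smooth muscle actin gene Acta2 had 8181, 6473 and 6077 against 41389, 40296 and 40924, Tagln, an actin-binding protein, had 1777, 1437 and 1485 against 11605, 11583 and 12933, and Vcl, the focal adhesion protein vinculin, had 6331, 6441 and 5832 against 17884, 17184 and 22146. In each, all 3 stimulated libraries exceeded all 3 starved ones. Actin genes are near-identical over much of their coding sequence, so that counts of Acta1, Acta2, Actg2, Actb and Actg1 may share reads, and the largest fold on the list, that of Acta1 (0.98, 0.87 and 4.31 against 272, 261 and 359 normalized counts), is uncertain for this reason and for its low baseline. As a share of all counts, the 43 genes went from 1.52% ± 0.0562 to 3.34% ± 0.0458 (SD, n = 3 in each group).

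Of the 6 tested genes for SRF and its partners, 4 rose and 2 fell. Srf itself had 1531, 1425 and 1421 normalized counts in 0.3% FBS and 19940, 19096 and 19651 in 15% FBS, a fold of 13.4 in group means. Its ternary complex partners Elk1, Elk3 and Elk4 rose less, at 0.81, 0.27 and 0.73 on the log2 scale, and Elk3 was not called with total counts or upper-quartile scaling. The cofactor genes were the ones that fell. Mrtfa had 2084, 2099 and 1925 against 1791, 1794 and 1611 (log2 fold change -0.23, edgeR adjusted p = 0.013), and Mrtfb had 1184, 1247 and 1206 against 1014, 1011 and 863 (-0.33, edgeR adjusted p = 0.0035). The Mrtfa call was lost without 0.3% FBS replicate 2 (edgeR adjusted p = 0.057) or without 15% FBS replicate 3 (edgeR adjusted p = 0.081). Of 13 YAP/TEAD targets, a list that holds Ccn1 and Ccn2 too, 10 rose and none fell (median 0.56), up to Ccn1 at 7.90.

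SRF binds the CArG box, CC followed by 6 A or T bases and GG. Promoter windows of RefSeq genes, from 250 bases before to 50 after each start in GRCm38.p6, were found for 11805 tested genes, and 1.6% of them held the word. It was present in 7.01% of the 442 genes raised over 2-fold, in 1.15% of the 434 lowered over 2-fold and in 10 of the 36 SRF-linked cytoskeletal genes with a window (27.8%), a list that was chosen for SRF and is therefore no independent evidence of the box. Starting from the box instead, 31 of the 189 genes that hold it were raised over 2-fold (16.4%) and 5 were lowered over 2-fold (2.65%). Over all genes with a window these shares were 3.74% and 3.68%. One box of each of those 10 genes, and the boxes of Srf itself and of the early genes Egr2, Dusp5 and Zfp36, are printed because they show the word upstream of the start in genes of both classes. The 2 boxes of Egr2 belong to different RefSeq start sites. Each line runs 5′ to 3′ on the gene's strand, with the box in capitals and 10 bases on each side.
Egr2 first box (chr10:67537484-67537513, plus strand): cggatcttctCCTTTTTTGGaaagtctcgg
Egr2 second box (chr10:67537787-67537816, plus strand): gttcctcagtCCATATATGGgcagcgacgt
Dusp5 first box (chr19:53529053-53529082, plus strand): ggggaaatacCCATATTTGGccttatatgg
Dusp5 second box (chr19:53529063-53529092, plus strand): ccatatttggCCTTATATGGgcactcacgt
Zfp36 (chr7:28379267-28379296, minus strand): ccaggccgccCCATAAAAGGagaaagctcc
Srf distal box (chr17:46556225-46556254, minus strand): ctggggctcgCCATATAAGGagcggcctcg
Srf proximal box (chr17:46556205-46556234, minus strand): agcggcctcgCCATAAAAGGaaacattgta
Acta1 (chr8:123894829-123894858, minus strand): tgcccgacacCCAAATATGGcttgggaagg
Fhl1 (chrX:56779571-56779600, plus strand): ccttggatcaCCTAAAATGGttaagaattt
Fhl2 (chr1:43163973-43164002, minus strand): gcgcgtgtgtCCTTATATGGtcaaatgact
Filip1l (chr16:57549170-57549199, plus strand): atgccgcgcgCCTTATAAGGctgagcggtg
Actg1 (chr11:120348566-120348595, minus strand): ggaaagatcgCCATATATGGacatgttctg
Myl9 (chr2:156775293-156775322, plus strand): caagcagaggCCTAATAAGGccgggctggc
Lima1 (chr15:99820177-99820206, minus strand): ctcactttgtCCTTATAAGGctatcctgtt
Vcl (chr14:20929161-20929190, plus strand): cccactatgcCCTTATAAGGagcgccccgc
Cnn2 (chr10:79988534-79988563, plus strand): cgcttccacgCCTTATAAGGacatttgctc
Myo1e (chr9:70207308-70207337, plus strand): gctgaattctCCATTTATGGacagattgcc

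Srf and Dusp5, with 2 boxes each in the window, rose by 3.74 and 5.77 on the log2 scale. Acta1, whose fold is uncertain as stated above, and Zfp36, with 1 box each, rose by 7.17 and 4.77. Whether the number of boxes played a part was not tested. Cnn2, which encodes a calponin, and Myo1e, a membrane-linked myosin, carried a box too and rose by 1.13 and 0.49. Of the other words counted on both strands, TGACGTCA, the cyclic AMP response element, stood in 7.24% of the genes raised over 2-fold and 3.35% of all genes with a window, TGANTCA, the AP-1 site, in 9.28% and 6.74%, TATAAA in 14.9% and 9.53%, and CATTCC, the TEAD site, in 19.5% and 14.7%. Genes lowered over 2-fold held these words about as often as all genes did (3.23%, 6.22%, 8.76% and 14.1%), and held the GC box GGGCGG in 54.6%, against 64.2% of all and 74.9% of the raised genes. The E-box CACGTG was in 13.8% of raised, 8.29% of lowered and 11.0% of all. A word is a description of the window and no measure of binding.

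Metabolic and clock genes also moved. Of 22 cholesterol synthesis and uptake genes 16 rose and 1 fell (median 0.64). Insig1, which holds the activators of the pathway in the endoplasmic reticulum, had 4977, 4894 and 5162 normalized counts in 0.3% FBS and 13174, 13007 and 14029 in 15% FBS, and the group means differed 2.67-fold. Dhcr7 was the member that fell (-0.22), a call that was lost without 0.3% FBS replicate 1, 15% FBS replicate 1 or 15% FBS replicate 2 (edgeR adjusted p = 0.18, 0.14 and 0.084). Of 18 circadian clock genes 7 rose and 3 fell (7 and 7 with total counts). The repressors responded most, Bhlhe40 with 743, 769 and 688 against 8551, 8149 and 7824 normalized counts and Nfil3 with 201, 245 and 237 against 2266, 2127 and 1933, and the clock's light- and serum-responsive gene Per1 had 1028, 978 and 935 against 3978, 4003 and 3923. Those 3 genes were higher in every stimulated library, whereas Dbp, an output gene of the clock, had 707, 784 and 782 against 372, 338 and 322 and was lowered (-1.14).

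The strongest decreases were smaller and belonged to other kinds of genes. The 15 named by the rule were Zfp503, Bmf, Txnip, 9930012K11Rik, Zfp658, Zkscan14, Zfp61, Mab21l1, Ccng2, Mab21l2, Prokr1, Zik1, Zswim3, Zfp41 and Osr2. Zfp503 (chr14:21983962-21989601), a developmental zinc-finger repressor, had 3753, 3687 and 3689 normalized counts in 0.3% FBS and 394, 373 and 291 in 15% FBS. At -3.39 ± 0.11 (SE, edgeR adjusted p = 2.2e-22) its log2 fold change was the most negative under the rule. Bmf, a pro-apoptotic BH3-only gene, had 960, 1106 and 997 against 138, 128 and 105 (-3.04 ± 0.12), and Txnip, the thioredoxin-binding inhibitor of glucose uptake, 4277, 5408 and 4878 against 791, 752 and 705 (-2.69 ± 0.10). The groups did not overlap in either gene, which the rule required. Osr2, a zinc-finger regulator of limb and palate development, had 1009, 1112 and 1048 against 257, 239 and 209, and Prokr1, a prokineticin receptor gene, 1965, 2336 and 2179 against 452, 506 and 444.

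Zinc-finger genes were mostly lowered, and 253 of the 2597 lowered genes were theirs. Of 379 tested genes named Zfp, Zkscan or Zscan, 253 were lowered (66.8%) and 34 raised (8.97%), with a median log2 fold change of -0.63, and 118 of the 614 genes lowered over 2-fold were theirs. Most genes of this name encode C2H2 zinc-finger proteins, many of them KRAB repressors of transposable elements, and members in genomic clusters resemble each other, so that the counting could divide their reads among relatives. The excess of decreases held at each level. Between 100 and 1000 normalized counts 73.9% of 234 were lowered, compared with 25.7% of 5225 other protein-coding genes. Between 10 and 100 the shares were 83.3% of 72 and 17.2% of 1616, and between 1000 and 10000 they were 39.1% of 46 and 11.1% of 4241. Restricting the other genes to a span under 50 kb gave 30.4% of 3916 lowered between 100 and 1000. Zfp658 illustrates the class, with 277, 277 and 330 normalized counts in 0.3% FBS and 50.6, 58.4 and 51.3 in 15% FBS. Zfp41, at a higher level, had 1009, 1057 and 1120 against 218, 259 and 233. The raised exceptions included Zfp36, which has another type of zinc finger.

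Other developmental regulators fell in part. Of 27 Hox genes 10 were lowered and 1, Hoxb9, raised (median log2 fold change -0.56). Of 7 Sox genes 4 were lowered and 1 raised, and of 7 T-box genes likewise 4 and 1. Sox4, the most abundant of the lowered Sox genes, had 7684, 8370 and 7970 normalized counts in 0.3% FBS and 4245, 4423 and 3833 in 15% FBS, with no overlap. Forkhead genes were divided, with 7 raised and 9 lowered of 26.

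Genes associated with quiescence and FOXO activity fell as a group. FOXO factors are excluded from the nucleus when growth factors activate AKT. Of 24 tested genes on this list 18 were lowered and 3 raised, with a median of -0.90. Ccng2, an atypical cyclin of resting cells, had 1304, 1487 and 1470 normalized counts in 0.3% FBS and 326, 327 and 214 in 15% FBS (-2.29 ± 0.11, SE). Pik3ip1, an inhibitor of PI3 kinase, had 1047, 1214 and 1183 against 233, 298 and 246 (-2.15 ± 0.11), and Txnip, described above, is on the list too. The factor genes Foxo1, Foxo3 and Foxo4 were lowered by themselves, at -1.03, -0.99 and -0.37. Cdkn1b, the CDK inhibitor p27, fell from 3089, 3405 and 3352 to 1844, 1796 and 1615. The 3 that rose were Irs2 (1.00), Trib2 (1.32) and Cited2 (0.48).

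Receptor genes gave no common direction: 6 rose and 7 fell of 25, and 3 and 10 with total counts. Pdgfra, the receptor for platelet-derived growth factor, an ingredient of serum, had 29526, 33343 and 32089 normalized counts in 0.3% FBS and 14064, 14886 and 13453 in 15% FBS. It was the lowest value on the list at -1.16 ± 0.08 (SE, edgeR adjusted p = 2.5e-13), with every stimulated library under every starved one. The sphingosine-1-phosphate receptor genes S1pr1 and S1pr3 rose, each by 0.66.

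Genes for growth and division moved little at this time. Cytosolic ribosomal protein genes gave no call among 80 in edgeR or DESeq2 (median -0.10), with 1 at an unadjusted edgeR p under 0.05, but 75 were called lowered with total counts and 40 with upper-quartile scaling, the scalings that move the whole table. Of 30 DNA replication genes 14 rose and 1 fell (median 0.22), with 7 and 9 under total counts, and of 24 mitosis genes 6 rose and 1 fell (median 0.03), with 1 and 9. Of 29 ribosome biogenesis genes 14 rose and 2 fell (median 0.19), from 7 and 6 under total counts, led by the helicase gene Ddx21 at 1.21. G1 genes were split, with 6 of 16 raised and 2 lowered (5 and 4 with total counts), and Ccnd1, cyclin D1, had 588, 530 and 554 normalized counts in 0.3% FBS and 789, 802 and 689 in 15% FBS (0.45 ± 0.11, SE), a call that was lost with total counts (0.24). Its counterpart Cdkn1a, the CDK inhibitor p21, had 2106, 1908 and 1811 against 4228, 4113 and 4024 (1.09 ± 0.09). Proteasome, collagen, solute carrier and nuclear-encoded respiratory chain genes lay near the middle of all genes. Proteasome subunit genes had 6 raised and 0 lowered of 38, but 0 and 12 with total counts. Collagen genes had 6 raised and 1 lowered of 37, but 0 and 6 with total counts. Solute carriers had 44 and 34 of 247, but 21 and 78 with total counts. Of the 88 respiratory chain genes 3 were lowered, and 66 with total counts. The lists of stress and lamina genes were mixed, with 8 raised and 2 lowered of 15 ATF4 targets (7 and 5 with total counts), 9 and 3 of 15 p53 targets (7 and 4), and 7 and 2 of 14 lamina genes (4 and 4). Of 77 mitochondrial ribosomal protein genes 18 were lowered and 2 raised (53 and 0 with total counts, 34 and 0 with upper-quartile scaling), and of 13 tubulin genes 7 were raised and none lowered (4 and 0 with total counts). No mitochondrially encoded gene among 23 was called by edgeR or DESeq2 (2 had an unadjusted edgeR p under 0.05), with 6 lowered under total counts. Of 35 replication-dependent histone genes 4 rose and 2 fell, of 51 snoRNA genes 2 and 1 (1 and 3 with total counts), of 13 snoRNA host genes 0 and 3 (0 and 6), and of 91 genes named as microRNAs 3 and 4.

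**Figure D3:**
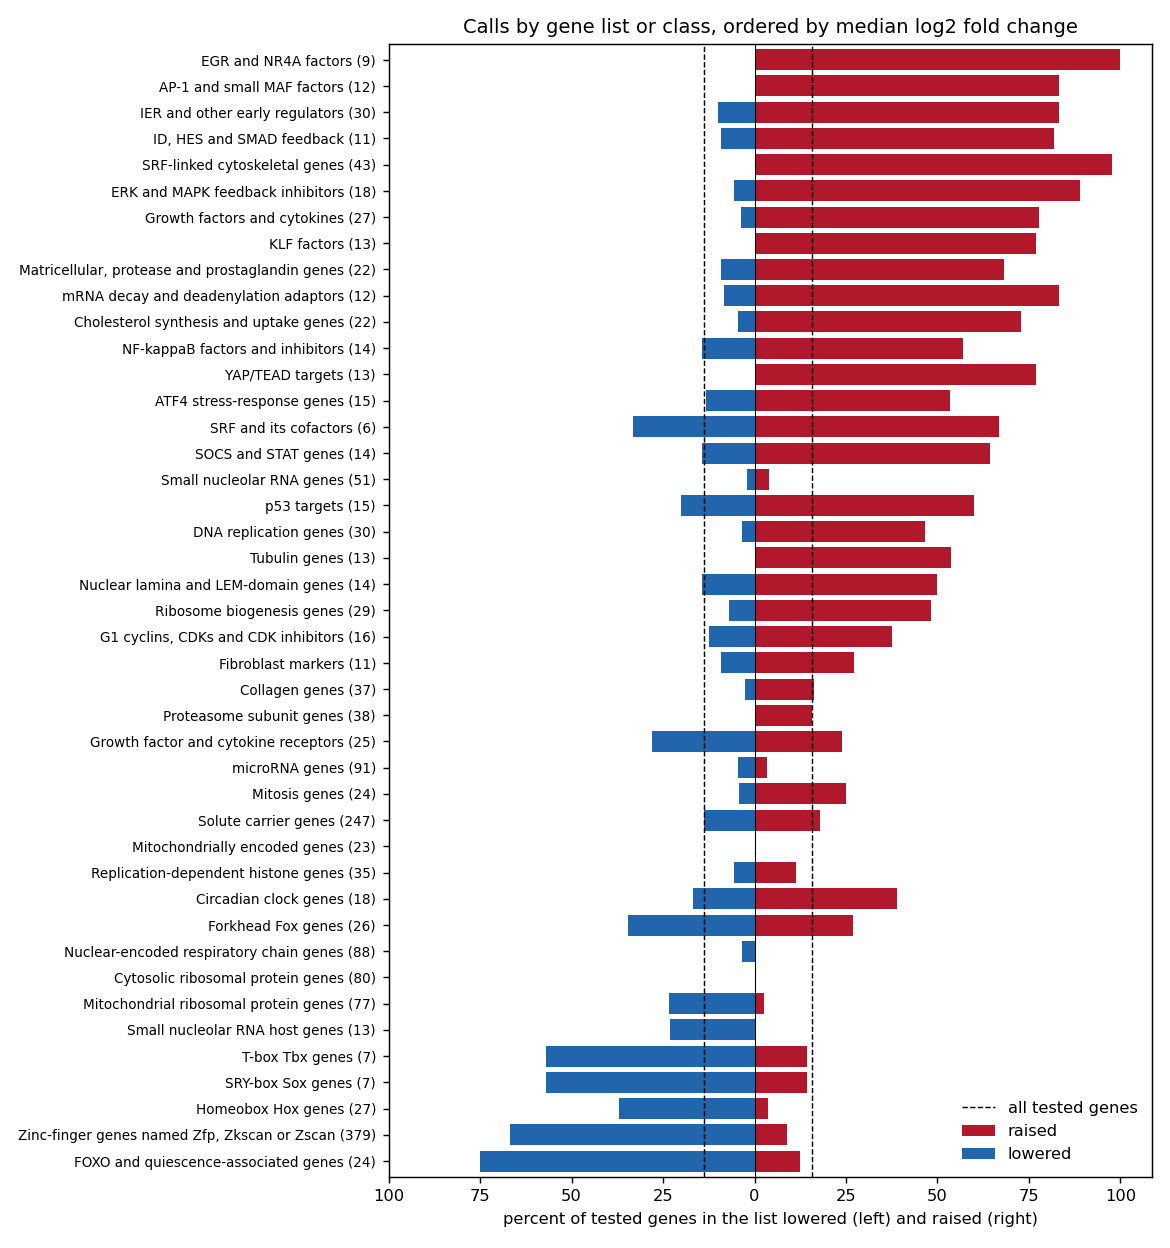
Percent of tested genes raised (right, red) and lowered (left, blue) in each gene list or symbol class with 6 or more tested genes, ordered by median log2 fold change, with the number tested in brackets. Dashed lines mark 15.6% raised and 13.9% lowered over all tested genes. The regulator, feedback and cytoskeletal lists lie far above the raised line, and the FOXO list and zinc-finger genes lie far beyond the lowered line. The lines are not matched for level: among genes with a mean of 1000 or more, 34.6% were raised and 10.8% lowered. With total counts the balance of raised against lowered turned for the mitosis, replication, collagen, proteasome, solute carrier, snoRNA and fibroblast marker lists.

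The direction of change was tied to the expression level. Among genes with a mean of 10 to 100 normalized counts 202 were raised and 449 lowered of 2904. Between 100 and 1000 the numbers were 1010 and 1565 of 5787. Above that the balance turned: 1512 were raised and 495 lowered of 4361 genes between 1000 and 10000, and 97 and 8 of the 290 genes at 10000 or more. Of the 614 genes lowered over 2-fold only 23 had a mean of 1000 or more, compared with 281 of the 702 raised over 2-fold. Ordering genes by the starved level alone, which a rise cannot inflate, gave 1290 raised and 586 lowered between 1000 and 10000, and 52 and 11 at 10000 or more. With total counts lowered genes outnumbered raised ones at every level, with 787 raised and 1838 lowered between 1000 and 10000 and 67 and 135 at 10000 or more. Precision changed along the same axis, with a median SE of 1.112 on the log2 scale under 10 counts, 0.321 from 10 to 100, 0.101 from 100 to 1000 and 0.07 from 1000 to 10000. Only 94 of 5326 genes under 10 counts were raised and 80 lowered, each by at least 1.395 on the log2 scale, since smaller changes were not detectable at this depth.

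Direction was also tied to gene span, the distance from the first to the last base of the gene. Of genes averaging 100 or more normalized counts, 23.4% of those under 5 kb were lowered, 26.7% from 5 to 20 kb, 20.4% from 20 to 50 kb, 12.5% from 50 to 100 kb, 7.11% from 100 to 200 kb and 4.02% of the 448 genes of 200 kb or more. The raised share ran from 17.5% in the shortest to 31.8% from 50 to 100 kb and 28.1% in the longest. The median log2 fold change rose along the same bins from -0.076 to 0.107. Long genes were nearly absent among the larger decreases. Only 2 of 270 genes lowered over 2-fold spanned more than 100 kb (0.741%), against 25 of 462 raised over 2-fold (5.41%) and 12.5% of all. The fall with span was seen within levels too: between 100 and 1000 counts the lowered share went from 29.9% under 5 kb to 4.53% at 200 kb or more, and between 1000 and 10000 from 13.5% to 3.48%. Genes changed over 2-fold in either direction were compact, with a median span of 18 kb and 6 exons for the raised and 12.1 kb and 4 exons for the lowered, next to 24 kb and 9 exons for all genes at this level. The span bins were counted with TMM only. With total counts the median log2 fold change of genes averaging 100 or more moved from 0.01 to -0.2, so that the shares depend on the scaling. Zinc-finger genes, described above, were not set apart in these bins. Whether span itself played a part was not tested.

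**Figure D4:**
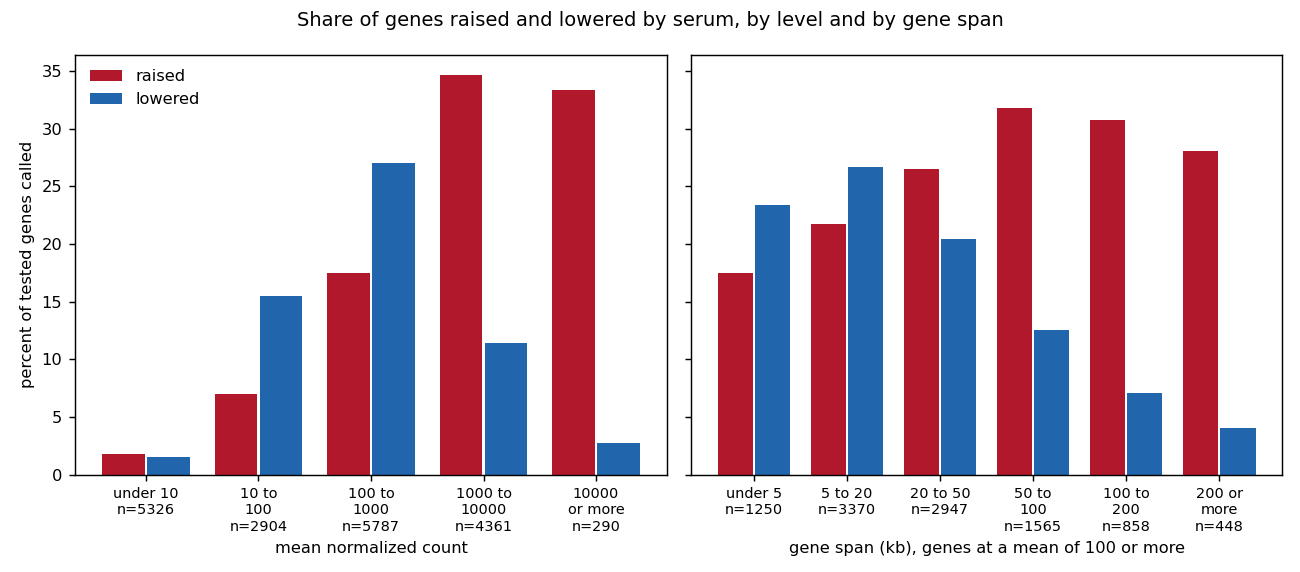
Percent of tested genes raised (red) and lowered (blue) by serum, in bins of the mean normalized count over 6 libraries (left) and, for genes with a mean of 100 or more, in bins of gene span in kb (right), with the number of genes under each bin. On the left the lowered share is larger from 10 to 1000 counts and the raised share is larger above 1000, an order that turned above 1000 under total counts. On the right the lowered share falls from 26.7% at 5 to 20 kb to 4.02% at 200 kb or more.

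With TMM scaling, the summed change in normalized counts was 3754304 over the raised genes and -627539 over the lowered genes. This imbalance depends on the scaling, and with total counts 1632 genes were called raised and 5847 lowered. Shares of all counts have a fixed sum, so that a share gained by some genes is lost by others. The 702 genes raised over 2-fold held 2.99% ± 0.0508 of all counts in 0.3% FBS and 12.5% ± 0.102 in 15% FBS, and the 614 lowered over 2-fold held 1.28% ± 0.0303 and 0.43% ± 0.0199 (SD, n = 3 in each group). Thbs1 alone went from 0.0148% to 1.21%. Of the normalized counts gained by raised genes 50% came from 88 genes, with Thbs1 supplying 7.45%, and of those lost by lowered genes 50% came from 280 genes. The largest single losses were in Marcks, a membrane-bound actin regulator, with 35824, 43565 and 42241 against 22613, 23469 and 22180, then Pdgfra and Adamts1.

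Some genes were all but silent before serum. Of 2147 tested genes with at most 3 reads in each starved library, 87 were raised, against 15.6% raised over all tested genes. Such genes could pass the filter through the stimulated or Lap2 siRNA libraries alone. With so few starved reads a decrease could hardly be called, so that the direction is set by the choice. Slco4a1, an organic anion transporter, had 1 read in the 3 starved libraries together and 95 in the 3 stimulated ones, a ratio of 97.1 after scaling (95% exact interval 17.0 to 3870). The EGF receptor ligand gene Areg had 1 and 88 reads, and Gpr3, a constitutively active receptor, 3 and 99. Csf3, the granulocyte growth factor gene, had no starved read and 20, 25 and 15 after serum, at least 20.4-fold higher against a floor of 3 reads over the starved group. These intervals cover counting error only. At this depth a silent gene cannot be told from one with a few transcripts per many cells.

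Noncoding genes followed the coding response in part. Of 753 lincRNA genes 34 were raised (4.52%) and 56 lowered (7.44%). Of 935 antisense genes the numbers were 35 (3.74%) and 48 (5.13%), and of 349 processed transcripts 13 (3.72%) and 37 (10.6%). These shares lie under the 19.4% raised and 17.1% lowered of protein-coding genes. Most of these genes were at low levels, where few changes are detectable: only 61 lincRNA, 44 antisense and 50 processed transcript genes averaged 100 or more normalized counts. Of the 115 noncoding genes raised over 2-fold, 37.4% lay within 10 kb of a protein-coding gene raised over 2-fold, compared with 4.54% of the noncoding genes that were not called. For the 107 lowered over 2-fold, 12.1% lay within 10 kb of a coding gene lowered over 2-fold, against 2.67%. Reads that run past the end of a coding gene were not separated here.

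Gm28321 (chr1:50815375-50817701), a lincRNA gene with no such neighbour, had 52, 74.5 and 74.4 normalized counts in 0.3% FBS and 1139, 1227 and 1284 in 15% FBS (log2 fold change 4.18 ± 0.12, SE). Neat1, the scaffold RNA of paraspeckles, had 4709, 3856 and 4682 against 8843, 9589 and 13475 (1.27 ± 0.10), and Mir22hg, the host transcript of miR-22, 354, 268 and 319 against 983, 1134 and 1417 (1.91 ± 0.11). All 3 genes were higher in every stimulated library. Dnm3os (chr1:162217623-162225550), antisense to the dynamin gene Dnm3, fell from 4365, 3554 and 4248 to 1209, 1321 and 1733 (-1.52 ± 0.10).

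Several noncoding genes lie on the opposite strand of strongly raised genes. The libraries were directional, but the strand setting of the counting is not given in the sources used here, so reads of such a pair may be divided wrongly. Gm29233, within Thbs1, had 3.93, 0.87 and 0 normalized counts in 0.3% FBS and 375, 117 and 118 in 15% FBS. Gm15270, opposite Ccn2, had 53, 34.7 and 56.1 against 651, 241 and 220, and Gm48529, opposite Tagln, 69.7, 65.8 and 48.5 against 524, 299 and 332. In each of the 3 the first 15% FBS library was far above the other two, whereas for Thbs1, Ccn2 and Tagln themselves it was not the highest of the 3. The part of strand in these values was not tested. Processed pseudogenes, which may share reads with their parent genes, were raised 59 times (5.52%) and lowered 9 times (0.843%) of 1068.

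Values in cells that received Lap2 siRNA were set beside those of the control cells. Over all tested genes, serum raised 18.3% and lowered 14.9% there. Of the 702 genes raised over 2-fold in control cells 552 (78.6%) were called raised with Lap2 siRNA as well, with a median log2 fold change of 1.27 next to 1.80, and of the 614 lowered 440 (71.7%) were called lowered, with -1.03 next to -1.45. The test of the difference itself called the response lower with Lap2 siRNA in 6.51% of all genes and higher in 7.09%. Among the 702 it was lower in 278 and higher in 26, and among the 614 it was lower in 4 and higher in 120. These genes were chosen on the control libraries, which also enter the difference, so that a smaller response on the other side is in part set by the choice. Zinc-finger genes were lowered in 212 of 379 cases with Lap2 siRNA, next to 253 with control siRNA. Ccn2 rose by 7.38 on the log2 scale in control cells and by 3.19 with Lap2 siRNA, and Fos by 6.67 and 6.63. The paper places Ccn2 (as Ctgf) among strong serum responders whose baseline was higher after Lap2 depletion. Fold changes alone do not separate a higher starved level from a lower stimulated one. Tmpo, the targeted gene, had 2775, 2805 and 2885 normalized counts in starved and 3264, 3243 and 3019 in stimulated control cells, a change that was not called (edgeR adjusted p = 0.081, and 0.012 with the 6 control libraries alone).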

How the data were processed

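RNA-seq of ribosomal RNA-depleted directional libraries was analysed. The authors aligned reads with TopHat2 in Chipster to mm10 and deposited the HTSeq count of each gene, 1 file per library, as raw counts. Versions, annotation and strand setting are not given in the sources used here. Genes were kept where 3 or more of the 12 libraries had over 1 count, and edgeR 4.0.16 (R 4.3.3; TMM, quasi-likelihood test, 4 group means, Benjamini-Hochberg) was fitted to all 12 libraries, with 15% minus 0.3% FBS in control siRNA cells as the contrast. Normalized counts are counts divided by TMM-scaled library size. The SE is the size of the log2 fold change divided by the square root of the test's F statistic. It can be too small where a group has only a few reads. On data simulated for this comparison with 18668 genes, 188 of 200 genes changed 2-fold were recovered and 13 unchanged genes were called. The changed genes were split evenly between the directions, left out the lowest counts, and no siRNA difference was simulated. With so few changed genes, the simulation does not test the scaling or the error rate of the real comparison. Named genes were the 15 largest changes per direction among called genes averaging 100 or more normalized counts whose groups did not overlap (threshold 0.05), and 1 of them is not reported here. Members of the gene lists were named as examples, and Gapdh, Marcks, Sox4, the silent genes and the noncoding genes were chosen after their values were seen. The gene lists (516 symbols in 27 lists, 488 tested) and symbol classes were chosen with earlier results of these data known. The sample titles give a running number, and replicates were numbered in that order within each group. The correlation of deviations from the group means ran from -0.122 to 0.0863 in the 3 same-numbered pairs and from -0.206 to 0.163 in 6 others. So few pairs cannot show whether cultures were paired. Promoter sequence came from RefSeq (GRCm38.p6). Alternatives were DESeq2 1.42.0, other scalings, other filters, the 6 control libraries alone, a replicate block and leaving out each library.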

Additional observations from a re-analysis of the deposited data

Results flagged for a closer look

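The serum response of 36 named genes was compared between Lap2 siRNA and control siRNA cells by the edgeR interaction test (3 libraries a group, adjusted p under 0.05), and 22 differed, 13 with a lower and 9 with a higher log2 fold change under Lap2 siRNA. Over all 18668 tested genes the response was lower in 6.51% and higher in 7.09%. Since most of the 36 genes were chosen by their change in the control cells, part of the difference is set by the choice. Among raised genes the difference (Lap2 siRNA minus control siRNA, log2) was -4.19 for Ccn2, -3.04 for Acta1, -2.12 for Ptgs2, -2.08 for Nppb and -2.01 for Ccn1. It was -1.86 for Dusp6, -0.92 for Lif, -0.85 for Ier3, -0.76 for Errfi1 and -0.73 for Nr4a1. The paper names Ccn2 (Ctgf), Ptgs2, Ccn1 (Cyr61), Dusp6 and Ier3 as strong serum responders whose baseline was higher after Lap2 depletion. Levels in Lap2 siRNA cells are not given here, so a smaller fold need not mean a lower stimulated level. The cytoskeletal genes Acta2 (-0.61) and Vcl (-0.55) rose less with Lap2 siRNA, and Tagln (0.62) rose more. By qPCR the paper reports that Lap2 depletion lowered both the starved level and the serum induction of these genes. A larger fold, as for Tagln, need not mean a higher stimulated level either. Tmpo, the target of the siRNA, differed by -0.79. Among lowered genes the difference was 2.0 for Prokr1, 1.82 for Bmf, 1.74 for Txnip, 1.29 for Osr2 and 1.07 for Mab21l2. It was 0.76 for Mab21l1, 0.62 for Zfp61 and 0.56 for Zfp503, each being lowered less with Lap2 siRNA. Groups of 3 libraries were not examined for single outlying values.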

How the results depend on the processing

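Scaling by total counts moved the calls most, to 1632 raised genes, 5847 lowered genes and 1003 lowered over 2-fold, so that 21.8% of calls were raised, against 52.9% with TMM and 36.0% with upper-quartile scaling. All 2597 genes lowered with TMM remained lowered under total counts, and 1630 of the 2915 raised genes remained raised. DESeq2 called 2987 and 2438. Leaving out 1 library at a time, 4709 to 4973 genes were changed, 2508 to 2671 raised and 2160 to 2348 lowered, 657 to 686 raised and 543 to 597 lowered over 2-fold, and 1982 to 2512 differed in response between siRNAs. A replicate block moved the number of changed genes from 5512 to 5509 with 12 libraries, and from 6185 to 6135 with the 6 control libraries, so that the pairing by number changed no count by over 1.5 times. Of 118 genes named in the report, 105 kept their direction and their side of the threshold under every alternative in which they were tested, and 13 did not (Capzb, Ccnd1, Dhcr7, Elk3, Gapdh, Has2, Jdp2, Jund, Klf3, Klf8, Klf11, Mrtfa and Tmpo). Uncalled values changed sign with total counts for Capzb (-0.07), Gapdh (-0.14), Jdp2 (-0.04), Jund (-0.06) and Tmpo (-0.04), with upper-quartile scaling for Gapdh (-0.03), and without 0.3% FBS replicate 3 for Klf8 (0.10, in a range from -0.63 to 0.10 with 1 library left out). Of the counts over lists and classes 148 moved by over 1.5 times and 1260 did not. Depth limits the genes under 10 normalized counts, where the smallest called change was 1.395 on the log2 scale.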
